A study of Mus musculus with 33 samples.

Results

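The gRNAs described here target a stretch of mouse chromosome 8 that lies 13 to 17 kb upstream of Zfp42. The rule that chose them uses position and no measured value, although the stretch was proposed with earlier results of these data in view. It takes all gRNAs of the Zfp42 library whose interval midpoint falls in chr8:43320176-43324022 (mm10), and there were 442 of them among 3908 gRNAs with a position. The stretch spans 3847 bp. The Zfp42 gene lies on the minus strand at chr8:43295067-43307009 in the RefSeq annotation of the same assembly, so larger coordinates are farther upstream, and the midpoints lay 13178 to 17002 bp from the annotated 5′ end. No RefSeq gene overlaps the stretch. The submitters' labels name a Zfp42 enhancer region, and both target sites that they list for deep sequencing in the Zfp42 line lie in it.

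Zfp42, also called Rex1, encodes a zinc finger protein and is a widely used marker of pluripotent mouse embryonic stem cells, which lose it as they begin to differentiate. Enhancers are stretches of DNA that bind transcription factors and raise the transcription of a gene that can lie far away. Cas9 guided to such a stretch cuts it, and the cell's end joining leaves small insertions and deletions, so a gRNA that becomes more frequent among cells with less reporter signal marks a position where such mutations may have lowered it.

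The reporter was a mouse embryonic stem cell line in which GFP replaced sequence at the Zfp42 transcription start site and a placeholder ("dummy") guide stood at the ROSA26 locus. GFP-negative and GFP-medium cells were sorted by flow cytometry after the gRNAs had been introduced by electroporation, and bulk cells were the unsorted population. All 3 populations came from cells grown with serum, LIF, GSK-3 inhibitor XV and UO126, and each had 4 replicates of the one line, 12 libraries in all. The labels do not say whether the replicates came from separate cultures, and the p-values therefore measure only the spread between these libraries, which may be technical.

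The counts of all library gRNAs except the placeholder summed to 252023 to 487732 in the GFP-negative, 121455 to 268197 in the GFP-medium and 39096 to 82959 in the bulk libraries. GFP-negative libraries held counts for 335 to 540 gRNAs and GFP-medium libraries for 475 to 957, against 1598 to 1689 in bulk. A count of 0 therefore allows up to 6.15 to 11.9 CPM (counts per 1000000 counts of the library) in GFP-negative, 11.2 to 24.7 CPM in GFP-medium and 36.2 to 76.7 CPM in bulk libraries, taking 3 counts as the limit. These limits cover counting error only, because the reads are PCR products without molecular identifiers. The placeholder made up 1.22% and 1.09% of bulk counts in replicates 1 and 2. In bulk replicates 3 and 4 it made up 22.5% and 23.5%. The sorted libraries split in the same way. In GFP-medium replicates 1 to 4 it made up 0.0212%, 0.0760%, 4.12% and 4.27%. In GFP-negative replicates 1 to 4 it made up 3.52e-04%, 0.00123%, 0.596% and 0.489%. Values are therefore also given for each pair of replicates. The 10 GFP-targeting gRNAs, the positive controls, took 23.4% ± 5.74 of the GFP-negative, 0.384% ± 0.391 of the GFP-medium and 0.589% ± 0.198 of bulk counts (SD, n = 4 each).

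The gRNAs of the stretch formed a dense tile that stood apart from the rest of the library. The nearest gRNA on the side of Zfp42 began 8308 bp away and the next one outward 3991 bp away. Neighbouring gRNAs started a median of 4 bp apart with at most 174 bp between starts, 437 of the 442 overlapped at least 1 other, and a gRNA overlapped a median of 6 others. Overlapping gRNAs share target sequence and are not replicates of each other. No count in any of the 12 libraries was recorded for 242 of the 442 (54.8%), against 1957 of the 3466 other gRNAs (56.5%), which left 200 gRNAs with data. In bulk, the median count over these 200 was 21.5, 35.5, 17 and 16 in replicates 1 to 4. At the edges, the outermost gRNA inside the stretch, chr8:43324000-43324022, had a mean of 0.880 CPM in GFP-negative cells and 1166 CPM in GFP-medium cells, against 1024 CPM in bulk. Its GFP-medium counts were 1, 2, 565 and 0, so replicate 3 alone made that mean. The innermost, chr8:43320176-43320198, had no count. The nearest gRNAs outside, chr8:43311846-43311868 and chr8:43328013-43328035, had 0 CPM in GFP-medium cells, against 223 and 41.0 CPM in bulk.

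Taken as a whole, the stretch held more of the GFP-medium counts and less of the GFP-negative counts than of the bulk counts. Its share of all library counts was 3.72%, 3.53%, 4.37% and 6.97% in GFP-negative replicates 1 to 4. In GFP-medium cells the 4 shares were 17.2%, 18.6%, 21.1% and 33.1%. In bulk cells they were 9.62%, 11.1%, 10.5% and 11.1%. No library of any population overlapped those of another. The means were 4.65% ± 1.59 in GFP-negative cells and 22.5% ± 7.28 in GFP-medium cells, against 10.6% ± 0.710 in bulk (SD, n = 4 each), which is 2.13 times the bulk share in GFP-medium and 0.439 times in GFP-negative cells. GFP-medium replicate 4 was the highest. The log2 ratio of GFP-medium to bulk was 1.09 over all replicates and 0.84 without that library, 0.79 in replicates 1 and 2 and 1.33 in replicates 3 and 4. That of GFP-negative to bulk was −1.19 over all replicates, −1.51 in replicates 1 and 2 and −0.93 in replicates 3 and 4. GFP-targeting gRNAs take up much of the GFP-negative counts, and with them left out of the totals the ratio was −0.83. Between the sorted populations the log2 ratio of GFP-negative to GFP-medium was −2.28, and −2.30 and −2.26 in the 2 pairs of replicates. No test is given for these sums, given how the stretch was proposed. The scaling factors of the edgeR fits below were not applied to them.

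Other stretches gave other shares in the same libraries. The 453 gRNAs within 2 kb of the Zfp42 5′ end held 15.5% ± 2.53 of the GFP-negative and 21.9% ± 1.10 of the GFP-medium counts, against 13.2% ± 0.245 of bulk, so their mean share was above bulk in both sorted populations. The 275 gRNAs that lie 2 to 5 kb upstream took 3.32% ± 0.968 and 15.2% ± 3.12, against 7.80% ± 0.798 in bulk, so by their means they too were above bulk in GFP-medium and below it in GFP-negative cells. The 676 gRNAs at 21 to 27 kb, the next dense tile outward, took 4.92% ± 0.601 and 6.51% ± 2.60, against 15.7% ± 0.615 in bulk. These differences between stretches were not tested.

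The excess in GFP-medium cells was uneven along the stretch. Laid out in windows of 500 bp from the end nearer to Zfp42, the windows from 13.667 to 15.666 kb upstream held more of the GFP-medium than of the bulk counts in every library, and those from 15.667 to 16.666 kb did not. The fold of mean shares, GFP-medium over bulk, was 1.07 in the first window (chr8:43320176-43320675), 3.54 in the second (chr8:43320676-43321175), 3.62 in the third (chr8:43321176-43321675), 1.68 in the fourth (chr8:43321676-43322175) and 2.23 in the fifth (chr8:43322176-43322675). It was 0.405 in the sixth (chr8:43322676-43323175), 0.732 in the seventh (chr8:43323176-43323675) and 1.78 in the eighth (chr8:43323676-43324022). The windows held 41, 34, 26, 15, 19, 26, 22 and 17 gRNAs with counts.

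The second window, which holds both deep-sequenced target sites, passed edgeR's test of GFP-medium against bulk in the most settings of all 8 windows. Its share was 0.768%, 1.68%, 0.551% and 3.02% in GFP-negative replicates 1 to 4 and 5.62%, 9.46%, 7.05% and 5.47% in GFP-medium replicates, against 1.84%, 2.22%, 1.78% and 1.94% in bulk. Every GFP-medium library lay above every bulk library and above every GFP-negative library, while GFP-negative and bulk overlapped. No gRNA supplied more than 21.7% of its mean GFP-medium share, and without the highest one the fold over bulk was 2.87. Of its 34 counted gRNAs, 31 had at least 1 GFP-medium count. In edgeR's quasi-likelihood fit over all 89 windows of the library, the summed counts were 2.68 log2 units higher in GFP-medium than in bulk cells (SE 0.51, adjusted p = 0.00271). The sum over the GFP-targeting gRNAs is counted among the 89. The fit scales the libraries, so its log2 changes are not those of the folds of shares, which was 3.54 for this window. With replicate number as a block the edgeR fit gave 2.68 with an adjusted p of 0.00225. The adjusted p lay between 2.64e-08 and 0.333 over the settings tried, and passed in 20 of the 22 that kept these windows. The exceptions used only 2 replicates per population.

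The third window had the largest rise but rested on fewer gRNAs. Its share was 0.847%, 0.660%, 0.0423% and 1.37% in GFP-negative replicates and 6.56%, 2.49%, 4.92% and 9.86% in GFP-medium replicates, against 1.37%, 1.71%, 1.58% and 1.92% in bulk. All GFP-medium libraries were above all bulk libraries and all GFP-negative libraries were below them, although GFP-negative replicate 4 and bulk replicate 1 were equal at the precision printed. One gRNA, chr8:43321187-43321208, supplied 43.3% of the mean GFP-medium share, and without it the fold was 2.19. The edgeR fit gave a log2 change of 2.85 in GFP-medium against bulk (SE 0.77, adjusted p = 0.0376). With the replicate block the adjusted p was 0.0650, within a range of 6.82e-05 to 0.453 over the settings, and the window passed in 10 of 22.

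The fifth window was the other one past the threshold, and the fourth did not reach it. In the fifth the shares were 1.07%, 0.923%, 1.65% and 0.315% in GFP-negative and 1.54%, 1.69%, 2.31% and 5.78% in GFP-medium replicates, against 0.904%, 1.39%, 1.42% and 1.37% in bulk, so that GFP-medium replicate 4 stood well above the other 3. The edgeR log2 change in GFP-medium against bulk was 2.08 (SE 0.58, adjusted p = 0.0376), with an adjusted p of 0.0844 under the replicate block and a range of 3.33e-04 to 0.549. In the fourth the shares were 0.0169%, 0.000615%, 0.382% and 0.00714% in GFP-negative and 1.39%, 1.96%, 2.29% and 2.21% in GFP-medium replicates, against 1.19%, 1.02%, 1.21% and 1.24% in bulk. The 3 populations of the fourth window did not overlap, but its GFP-medium change did not pass edgeR's test (log2 change 1.62, SE 1.10, adjusted p = 0.600).

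The main edgeR fit does not pair libraries by replicate number. Over the stretch it gave 3 of 8 windows (37.5%) higher in GFP-medium than in bulk cells, against 8.99% of the 89 windows in the library. It gave 0 lower (0.0% in the library, 0 at an unadjusted p under 0.05, and 0 by DESeq2 and by limma-voom). DESeq2 gave 4 higher windows, limma-voom 1 and the replicate block 1, the second window in each of the last 2. For these 3 fits the share over the library was not counted. Leaving out GFP-medium replicate 4, or any 1 of bulk replicates 1, 2, 3 or 4, also left 1, the second window. With replicates 1 and 2 alone or replicates 3 and 4 alone there were 0. The median log2 change over all 89 windows was 0.12 in GFP-medium against bulk, 0.14 in GFP-negative against bulk and −0.13 in GFP-negative against GFP-medium.

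The remaining windows showed how single gRNAs and single libraries set a sum. In the first window the GFP-medium shares were 0.0184%, 0.410%, 1.96% and 3.36%, against 1.19%, 1.28%, 1.30% and 1.62% in bulk, so replicates 1 and 2 lay below bulk and replicates 3 and 4 above it. In the eighth, 68.9% of the mean GFP-medium share came from chr8:43323845-43323866, and without it the fold over bulk was 0.618. In the sixth and seventh the mean shares were 0.162% and 0.522% in GFP-negative cells and 0.306% and 0.874% in GFP-medium cells, against 0.755% and 1.19% in bulk. Of the sorted libraries only GFP-negative replicate 4, with 1.75% in the seventh, lay above these bulk means. In the seventh all 4 GFP-medium libraries were below all bulk libraries. Its fitted log2 change in GFP-medium against bulk was nevertheless 0.46 by edgeR (adjusted p = 0.878), so the scaling affects the sign here too.

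By share, GFP-negative cells were separated from GFP-medium cells in windows 2, 3 and 4 and from bulk in 5 of the 8 windows. How many windows of the whole library separated in these ways was not counted, so these numbers cannot be read as particular to the stretch. Of single gRNAs counted in the library, 51.5% had all 4 GFP-negative libraries below all 4 bulk libraries. The gRNAs with a position outside the stretch together held 0.810 times their bulk share in GFP-negative cells. All 4 GFP-negative libraries were below all bulk libraries in windows 1, 3, 4, 6 and 8, with folds of mean shares of 0.122, 0.443, 0.0872, 0.215 and 0.377. By edgeR 0 of 8 windows were higher in GFP-negative than in bulk cells, against 11.2% of the library's windows, and 0 were lower, against 1.12%. The library's windows here include the summed GFP-targeting gRNAs, the positive controls. At an unadjusted p under 0.05 there were 0 and 1, against 16.9% and 3.37% of the library's windows. By DESeq2 there were 0 and 0, and by limma-voom 0 and 1. With the replicate block the fourth window was lower (edgeR log2 change −4.57, adjusted p = 0.0495). Without GFP-negative replicate 3 the second window was called higher and window 4 lower. The sign of this comparison depends on the scaling: the fitted log2 change was 0.93 in the second, 0.14 in the third and 0.83 in the fifth window, where the folds of shares were 0.774, 0.443 and 0.779.

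Set against GFP-medium cells, 3 of 8 windows were lower in GFP-negative cells by edgeR (37.5%, against 7.87% in the library), and 0 were higher (7.87% in the library; 0 at an unadjusted p under 0.05 and 0 by DESeq2 or limma-voom). These were window 2 (log2 change −1.75, SE 0.50), window 3 (−2.71, SE 0.77) and window 4 (−4.34, SE 1.23), each with an adjusted p of 0.0224. DESeq2, limma-voom and the replicate block also called 3 windows lower. Without GFP-medium replicate 4 none of the 8 was called, and without GFP-medium replicate 2 there was 1, the third window.

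The excess in GFP-medium cells came from a minority of the gRNAs. Of the 200 with counts, 26 (13%) had a mean CPM in GFP-medium cells over 4 times that in bulk, against 62 of 1509 other gRNAs (4.11%). Of the 26, 11 lay in the second window, 5 in the first, 4 in the third, 3 in the fourth, 2 in the fifth and 1 in the eighth. In GFP-negative cells 3 of the 200 (1.5%) passed the same fold, against 61 of 1509 other gRNAs (4.04%). At the other end 106 (53%) of the 200 had no GFP-negative count and 56 (28%) no GFP-medium count, against 44.5% and 26.0% of the other gRNAs. Over the 152 gRNAs tested singly, the median log2 change was −7.33 in GFP-negative against bulk, −0.51 in GFP-medium against bulk and −3.80 in GFP-negative against GFP-medium, where the medians over all 1342 tested gRNAs were −4.06, −1.25 and −1.55.

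The same contrast was present inside each replicate number. Among gRNAs with at least 10 counts in their own bulk library, 9.59%, 11.9%, 12.98% and 16.5% of those in the stretch were over 4-fold higher in the GFP-medium library of replicates 1 to 4, against 3.86%, 6.56%, 6.77% and 5.04% of the other gRNAs. In the GFP-negative libraries 4.11%, 1.89%, 2.29% and 6.30% of those in the stretch passed, against 5.70%, 5.32%, 4.96% and 7.02% of the others. The share in the stretch was thus higher than elsewhere in all 4 GFP-medium libraries and lower in all 4 GFP-negative ones. No test was run on these shares, because overlapping gRNAs are not independent.

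Counts in sorted libraries were concentrated in few gRNAs. The 10 highest gRNAs held 98.6%, 94.3%, 73.3% and 83.0% of the stretch's counts in the GFP-negative libraries and 81.5%, 59.7%, 53.2% and 64.5% in the GFP-medium libraries, against 20.4%, 19.0%, 17.7% and 15.0% in bulk. Detection was likewise narrower, with 23, 40, 45 and 39 gRNAs in GFP-negative and 48, 114, 77 and 81 in GFP-medium libraries, against 195, 187, 179 and 191 in bulk. Which gRNAs were high also varied more: Spearman's rho between pairs of libraries over the 200 gRNAs was 0.0734 to 0.293 in GFP-negative, 0.269 to 0.539 in GFP-medium and 0.541 to 0.730 in bulk cells. These correlations run across gRNAs of 2 libraries, the gRNAs overlap, and the bulk libraries were the shallowest.

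Only 4 gRNAs (2% of 200, against 0.582% of the 1718 counted in the library) had all 4 GFP-medium libraries above all 4 bulk libraries, 3 in the second window and 1 in the third. The first, chr8:43320710-43320732, lies 13712 bp upstream and corresponds to a deep-sequenced site that the labels list 1 bp higher, at chr8:43320711-43320733. Its level was 0, 2713, 1209 and 2269.6 CPM in GFP-negative and 31342, 11395, 11699.8 and 5353 CPM in GFP-medium libraries, against 539, 711, 622 and 742 CPM in bulk. GFP-medium libraries were highest throughout, and 3 of 4 GFP-negative libraries also exceeded bulk. The mean was 14947 ± 11314 CPM in GFP-medium cells, 22.9 times the bulk mean of 653 ± 91.8 CPM (SD, n = 4). Among the gRNAs of the stretch with a higher GFP-medium level it had the smallest p-value, but edgeR's log2 change of 5.36 (SE 2.12) had an adjusted p of 0.0737, above the threshold, against 4.51e-04 by DESeq2 and 0.372 by limma-voom.

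The second of the 4, chr8:43320826-43320847, lies 13828 bp upstream and corresponds to the other deep-sequenced site, listed at chr8:43320827-43320848. It had 3568, 7416, 3.95 and 3.97 CPM in GFP-negative and 4579, 4743, 9345 and 5151 CPM in GFP-medium libraries, against 785, 856, 576 and 716 CPM in bulk. GFP-medium replicate 3 stood above the other GFP-medium libraries. GFP-negative replicates 1 and 2 were above bulk and replicates 3 and 4 near 0. The GFP-medium mean of 5954 ± 2273 CPM was 8.12 times the bulk mean (edgeR log2 change 3.64, adjusted p = 0.290, against 0.00784 by DESeq2).

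The third, chr8:43320967-43320988, at 13968 bp, overlaps no other counted gRNA. It had 3.52, 0, 2982 and 175 CPM in GFP-negative and 4720.1, 31194, 15619 and 6908 CPM in GFP-medium libraries, against 1539.6, 1965, 2073 and 767 CPM in bulk, a fold of 9.21 of the GFP-medium over the bulk mean. The last, chr8:43321185-43321207, at 14187 bp, had 1052, 0, 0 and 11.9 CPM in GFP-negative and 2459, 6719, 1375 and 15864 CPM in GFP-medium libraries, against 446, 759, 760.0 and 588 CPM in bulk, a fold of 10.3. Neither passed edgeR's test in GFP-medium against bulk (adjusted p = 0.223 and 0.260), and both passed DESeq2's (0.00227 and 0.0107).

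Around chr8:43321166-43321208 3 overlapping gRNAs each had a GFP-medium mean over 10 times that in bulk. With chr8:43321185-43321207 these were chr8:43321187-43321208 and chr8:43321166-43321188. The first of these, with the highest GFP-medium mean of the stretch, had 0, 0, 0 and 8245 CPM in GFP-negative and 26202, 556, 19003 and 57362 CPM in GFP-medium libraries, against 1247, 819.7, 967 and 1177 CPM in bulk. It was 24.5 times bulk by its GFP-medium mean, although GFP-medium replicate 2 lay below all bulk libraries. The other had 14.1, 6524, 0 and 0 CPM in GFP-negative and 28354, 4575, 8678 and 94.3 CPM in GFP-medium libraries, against 477, 832, 415 and 869.7 CPM in bulk, a fold of 16.1 with GFP-medium replicate 4 below bulk. Their edgeR adjusted p-values in GFP-medium against bulk were 0.130 and 0.186, and those of DESeq2 0.00296 and 0.00472.

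Other gRNAs with a high GFP-medium mean varied widely between libraries. The gRNA chr8:43323845-43323866, at 16846 bp in the eighth window, had 0, 0, 806 and 1964 CPM in GFP-negative and 6712, 3.73, 90.6 and 54857 CPM in GFP-medium libraries, against 1309, 1386, 944 and 1407 CPM in bulk. The gRNA chr8:43322315-43322336, at 15316 bp, had 0, 0, 0 and 381 CPM in GFP-negative and 15359, 3591, 0 and 1899 CPM in GFP-medium libraries, against 616, 458, 92.1 and 665 CPM in bulk, so that 3 of the 4 GFP-medium libraries were above every bulk library. In the first window, chr8:43320524-43320546 had 0, 11.2, 5969 and 16504 CPM in GFP-medium libraries, against 400.3, 699, 1382 and 1535 CPM in bulk. Over 1000 CPM in all 4 GFP-medium libraries were 5 gRNAs: the 4 that separated from bulk, and chr8:43323463-43323484. The last had 0, 4.10, 43.5 and 2234 CPM in GFP-negative and 2568, 5701, 2791 and 2505 CPM in GFP-medium libraries, against 2279, 3110.0, 2418 and 1637 CPM in bulk, where it had the highest mean of the stretch. Its GFP-medium and bulk values overlapped.

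High values in GFP-negative cells recurred in some libraries and never in all 4. No gRNA exceeded 1000 CPM in all 4 GFP-negative libraries, 4 did in 2 of them and 3 did in 3 of them. The last were chr8:43320710-43320732, chr8:43322186-43322208 and chr8:43322572-43322594. No gRNA of the stretch had all 4 GFP-negative libraries above all bulk libraries (0.931% of counted gRNAs in the library did, GFP-targeting ones included). The highest GFP-negative mean, 5064 ± 10104 CPM, belonged to chr8:43320689-43320711, which overlaps the first deep-sequenced site by its end. It had 0, 34.9, 0 and 20220.4 CPM in GFP-negative and 4833, 731, 263 and 40.4 CPM in GFP-medium libraries, against 539, 1772, 46.1 and 1253 CPM in bulk, so replicate 4 alone set the mean. Likewise chr8:43322553-43322575 had 0, 1279, 9532 and 19.8 CPM in GFP-negative and 0, 0, 3845 and 2949 CPM in GFP-medium libraries, against 154, 711, 1059 and 1023 CPM in bulk. By its GFP-negative mean chr8:43322553-43322575 was 3.67-fold above bulk and chr8:43320689-43320711 5.61-fold. Besides chr8:43320689-43320711, those over 4-fold were chr8:43321145-43321166 (5.09-fold) and chr8:43322830-43322851 (8.60-fold, from 185 CPM in GFP-negative against 21.5 CPM in bulk). The last was chosen after its values were seen.

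Tested singly with edgeR over all 1342 gRNAs that passed the filter on low counts, 152 of them in the stretch, 0 gRNAs of the stretch were higher in GFP-medium than in bulk cells (0.0% of those tested in the library). At an unadjusted p under 0.05 there were 2, chr8:43320710-43320732 and chr8:43321187-43321208, among 3 in the whole library (0.224% of those tested). DESeq2 called 9 higher. Its calls over the whole library were not counted, so the 9 cannot be set against a library share. Of the 9, 4 lay in the second window, 3 in the third, 1 in the fifth and 1 in the eighth. In the second window these were the 3 gRNAs described above and chr8:43320803-43320824 at 13804 bp, in the third the 3 overlapping ones, and in the other windows chr8:43322315-43322336 and chr8:43323845-43323866. Lower in GFP-medium than in bulk were 35 by edgeR (23.0%, against 19.7% in the library), of which 21 had no GFP-medium count. The 21 passed the filter on low counts only through other populations, so they could not be called higher. Complete separation gave 72 of 200 counted gRNAs with all GFP-medium libraries below all bulk libraries (36%, against 40.1% in the library). Without GFP-medium replicate 2, 59 were lower by edgeR.

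In GFP-negative against bulk, 0 gRNAs of the stretch were higher by edgeR (0.596% in the library) and 0 by limma-voom. At an unadjusted p under 0.05 in edgeR 0 were higher, against 0.820% in the library. The library shares include GFP-targeting gRNAs that passed the filter. DESeq2 called 4 higher, again without a count of its calls over the library. All lay between 13712 and 14168 bp upstream: chr8:43320710-43320732, chr8:43320826-43320847, chr8:43321145-43321166 and chr8:43321166-43321188. Lower by edgeR were 87 of 152 (57.2%, against 44.6% in the library), 64 of them without any GFP-negative count. All GFP-negative libraries lay below all bulk libraries for 117 of 200 counted gRNAs (58.5%, against 51.5% in the library). The 64 passed the filter on low counts only through other populations, so they could be called lower but not higher. For these 64 a fold is only a bound. The largest was that of chr8:43321688-43321709, which had 0 CPM in all GFP-negative libraries, against 1232, 1350.1, 2188 and 1586 CPM in bulk, and was at least 157-fold lower (adjusted p = 0.00754), with 3 counts per library as the limit. That of chr8:43323999-43324020 was at least 152-fold (adjusted p = 0.00512) and that of chr8:43321064-43321086 at least 147-fold (0.00496). The gRNA chr8:43323146-43323167 had no count in any sorted library, against 951 ± 216 CPM in bulk.

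In GFP-negative against GFP-medium, 0 gRNAs of the stretch were higher by edgeR (3.65% in the library), 0 by DESeq2 and 0 by limma-voom. At an unadjusted p under 0.05 in edgeR 2 of the 152 were higher, against 6.63% in the library. For 0 of the 200 counted gRNAs all GFP-negative libraries lay above all GFP-medium libraries (0.873% in the library). Lower were 48 of 152 (31.6%, against 21.9% in the library), 40 of them without any GFP-negative count. The 40 passed the filter on low counts only through other populations, so they could not be called higher. None of the 48 calls was left with replicate number as a block, and none without GFP-negative replicate 1. All 4 GFP-negative libraries were below all GFP-medium libraries for 6 of the 200 counted gRNAs (3%, against 1.22% in the library). One was chr8:43321563-43321584, at 14564 bp, with 49.3, 0, 0 and 0 CPM in GFP-negative and 4121, 2099, 2865 and 114 CPM in GFP-medium libraries, against 1432, 916, 1520.0 and 1125 CPM in bulk (edgeR log2 change GFP-negative over GFP-medium −7.93, adjusted p = 0.0368). Its neighbour chr8:43321563-43321585, which differs by 1 bp at its end, had no GFP-negative count and 33.0, 14.9, 1309 and 6.73 CPM in GFP-medium libraries, against 369, 916, 990.3 and 921 CPM in bulk. The largest bound was that of chr8:43321978-43322000, at least 342-fold lower in GFP-negative cells, but its GFP-medium values of 0, 13519.9, 8.23 and 316 CPM came almost wholly from replicate 2.

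By position, some gRNAs with a GFP-medium mean over 4 times bulk overlapped others above bulk and some did not. The gRNA chr8:43320710-43320732 overlaps 2 counted gRNAs, both above bulk by their GFP-medium mean and 1 of them over 4-fold. Those at chr8:43321185-43321207 and chr8:43321187-43321208 each overlap 2 counted gRNAs, both over 4-fold. At chr8:43320898-43320933 there were 3 gRNAs over 4-fold by their means, each with 5 counted overlapping neighbours above bulk, but their values came from few libraries. In GFP-medium replicates 1 to 4, chr8:43320898-43320920 had 0, 9616, 865 and 747 CPM, chr8:43320910-43320931 had 0, 4251, 74.1 and 2269 CPM, and chr8:43320911-43320933 had 0, 2573, 0 and 4303 CPM. The gRNA chr8:43321012-43321033, 9.08-fold by its mean, had 85.0, 8076, 0 and 0 CPM in GFP-medium libraries, so replicate 2 alone made the fold, and it overlaps 1 counted gRNA that was not above bulk. In the same second window chr8:43321064-43321086 had 0, 22.4, 0 and 0 CPM in GFP-medium libraries, against 2125, 1543, 1198 and 1099.9 CPM in bulk. The gRNAs chr8:43320898-43320920 and chr8:43320911-43320933 were chosen after their values were seen.

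In windows of 250 bp the GFP-medium excess was highest at chr8:43321176-43321425, with a fold of mean shares of 5.58, and at chr8:43320676-43320925, with 4.06. Both passed edgeR's test (log2 change 3.43, adjusted p = 0.0105, and 2.91, adjusted p = 0.00622). The window between them, chr8:43320926-43321175, had a fold of 2.95 and did not pass (adjusted p = 0.0680), and chr8:43322176-43322425 had 3.08 and passed (2.49, adjusted p = 0.0343).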

How the data were processed

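Counts per gRNA and library were used as deposited by the authors, in 1 table for the Zfp42 line. They are whole numbers whose totals differ between libraries, and were taken as raw counts from the values themselves. Per the submitters' processing notes the build is mm10. The counting program, and the base from which positions are counted, were not given in the sources used here. Libraries were assigned by their titles. The placeholder guide was left out of totals and tests. The 2 deep-sequencing samples of the Zfp42 line had no measurement used here. The gene span and strand came from RefSeq tables of the matching assembly. No gRNA sequence was used.

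CPM and shares were taken over all library gRNAs. The library's percentages of calls and of complete separation include the GFP-targeting gRNAs, which enter the window fits as a summed feature. Single gRNAs, and sums over windows of 500 bp laid from the start of the stretch over the whole library, were fitted in edgeR 4.0.16 (R 4.3.3) with all 12 libraries: filterByExpr with a minimum count of 10, TMM, robust quasi-likelihood F test, 2-sided, Benjamini-Hochberg at 0.05 over all features tested. Alternatives were other scalings, DESeq2 1.42.0 with size factors from positive counts, limma-voom (limma 3.58.1), no filter, other windows, pairs of replicates, each library left out, and replicate number as a block. Same-numbered libraries deviated together, with correlations of 0.116 to 0.259 in all 12 pairs, so the numbers were taken as pairing the samples. Those of differently numbered libraries were all below 0, which deviations from a population's own mean bring about in part by construction. The main fit does not use the pairing, and the calls and library percentages given first come from it. Fits with replicate number as a block are given as an alternative. The fits were tested on simulated data.

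The gRNAs named were, by rule, those called by edgeR with the largest change, the 10 highest by mean CPM in each sorted population, those whose libraries separated completely, and the 5 highest in bulk; others are marked. The stretch, lists and tests were chosen with earlier results of these data known.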

Additional observations from a re-analysis of the deposited data

Results flagged for a closer look

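In 96 groups of 4 libraries tested for a value far from the other 3, 28 had one. Chance gives about 1 in 20 groups where values are roughly normal, a rate that does not hold for groups of 3 zeros and 1 count or for gRNAs named for a high mean. Among the windows these were the GFP-negative share of the first window in replicate 3 (0.568%) and of the fourth in replicate 3 (0.382%), the GFP-medium share of the eighth in replicate 4 (5.66%), and the bulk share of the fifth in replicate 1 (0.904%).

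Among single gRNAs the far value was in a GFP-negative library for 13, in a GFP-medium library for 10 and in a bulk library for 1. In GFP-negative replicate 4 these were chr8:43320689-43320711 (20220.4 CPM), chr8:43321187-43321208 (8245 CPM), chr8:43321570-43321592 (4944 CPM), chr8:43323463-43323484 (2234 CPM) and chr8:43322315-43322336 (381 CPM). In GFP-negative replicate 3 they were chr8:43320967-43320988 (2982 CPM) and chr8:43322553-43322575 (9532 CPM). In GFP-negative replicate 2 they were chr8:43321145-43321166 (6223 CPM) and chr8:43321166-43321188 (6524 CPM). In GFP-negative replicate 1 they were chr8:43321335-43321357 (7336 CPM), chr8:43321185-43321207 (1052 CPM), chr8:43321563-43321584 (49.3 CPM) and chr8:43323677-43323698 (3.52 CPM, a single count).

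In GFP-medium replicate 4 the far values were those of chr8:43323845-43323866 (54857 CPM), chr8:43321570-43321592 (17244 CPM) and chr8:43322572-43322594 (9723 CPM). In GFP-medium replicate 3 they were those of chr8:43320826-43320847 (9345 CPM) and chr8:43321563-43321585 (1309 CPM). In GFP-medium replicate 2 they were those of chr8:43323463-43323484 (5701 CPM) and chr8:43323677-43323698 (134 CPM). In GFP-medium replicate 1 they were those of chr8:43320689-43320711 (4833 CPM), chr8:43321688-43321709 (1024 CPM) and chr8:43321335-43321357 (477 CPM). In bulk the low value of chr8:43321563-43321585 in replicate 1 (369 CPM) was far from the others.

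The 2 sorted populations differed in their change against the same bulk libraries in windows 2, 3 and 4, where the log2 change of GFP-negative over GFP-medium was −1.75, −2.71 and −4.34 in edgeR's test.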

How the results depend on the processing

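The log2 ratios of the whole stretch kept their direction in every setting run. None of these settings applied the scaling factors of the edgeR fits to the sum. In windows 2, 3 and 5 GFP-negative over bulk was below 1 by share (0.774, 0.443 and 0.779). With that scaling the fitted log2 changes there were above 0 (0.93, 0.14 and 0.83). Whether the direction for the whole stretch in GFP-negative against bulk holds under that scaling was not tested. Without the GFP-targeting gRNAs in the totals GFP-negative over GFP-medium was −1.91, and without the highest gRNA −2.17. Leaving out 1 library at a time gave −1.45 to −1.08 for GFP-negative over bulk, 0.84 to 1.20 for GFP-medium over bulk and −2.54 to −2.03 for GFP-negative over GFP-medium. For single gRNAs in GFP-negative against bulk, DESeq2 called 4 higher, and the number lower was 36 by limma-voom, 131 without the filter and 52 with replicates 3 and 4 only (86 to 107 with 1 library left out). In GFP-medium against bulk, the number higher was 2 with TMMwsp, 1 with DESeq2's size factors in edgeR, 9 by DESeq2, 2 with only the 2 populations compared and 0 to 2 with 1 library left out; the number lower was 13 by limma-voom, 71 without the filter, 0 with replicates 3 and 4 only and 29 to 59 with 1 library left out. In GFP-negative against GFP-medium, the number higher was 2 with TMMwsp, 1 with DESeq2's size factors, 2 without the filter and 0 to 2 with 1 library left out. The number lower was 0 with the replicate block, with replicates 1 and 2 only, with replicates 3 and 4 only and with only the 2 populations compared, and 0 to 53 with 1 library left out.

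For windows in GFP-negative against bulk, windows of 250 bp gave 1 higher and 2 lower, windows shifted by 250 bp 2 lower, and limma-voom and the replicate block 1 lower each, while leaving out 1 library gave 0 to 1 in each direction. In GFP-medium against bulk, the number higher was 1 with total counts, with TMMwsp, by limma-voom and with the replicate block, 0 with either pair of replicates, and 1 to 3 with 1 library left out. In GFP-negative against GFP-medium, the number lower was 0 with either pair of replicates, 1 with only the 2 populations compared, 5 with shifted windows, and 0 to 4 with 1 library left out. With 1 gRNA, chr8:43321958-43321979, the log2 change of GFP-negative over GFP-medium turned to 2.95 with replicates 3 and 4 only, where it had 0 and 11.9 CPM in GFP-negative against 0 and 0 CPM in GFP-medium libraries. Settings with a pair of replicates hold fewer libraries by construction; the cause of the other changes was not tested. Over 40 changes of named gRNAs, 735 values kept direction and side of the threshold, 110 fell short of it, 20 newly passed and 1 turned; over 6 changes of windows, 90 kept and 42 fell short. With the replicate block 95 gRNAs were lower in GFP-negative cells against bulk and 40 in GFP-medium cells against bulk; it moved no count of calls by over 1.5 times beyond those given. Leaving out gRNAs listed more than once gave no value, because no gRNA of the stretch is. Bulk libraries, at 39096 to 82959 counts, limit what can be seen of gRNAs that are rare in bulk.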

Other observations

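Whether a gRNA had any count went with the length of its interval. In the table an interval's end minus its start is 21 or 22 bp. In the stretch all 91 gRNAs of 21 bp had counts, and so did 109 of the 351 of 22 bp, so all 242 without counts were of 22 bp. In the whole Zfp42 library 713 of 716 gRNAs of 21 bp had counts, against 996 of 3192 of 22 bp. Those of 21 bp in the stretch held 1.75% of the GFP-negative and 11.97% of the GFP-medium counts, against 5.06% of bulk, and those of 22 bp held 2.89% and 10.5%, against 5.52% of bulk, so both were above bulk in GFP-medium cells. There were 20 pairs of gRNAs whose intervals differ by 1 bp at an end, and both gRNAs of each pair had counts.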
